A study of Mus musculus with 72 samples.

Results

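The regions described here are 1179 sites of open chromatin in microglia at which acetylation of histone H3 at lysine 27 (H3K27ac) was higher in SgshKO than in WT mice. They were taken from the 91770 peaks of the microglial H3K27ac table by 2 limits. The mean of the 4 SgshKO ChIP libraries had to be at least 20 normalised tags, which are tags scaled to a library total of 10000000, and the ratio of the SgshKO to the WT mean, with 1 added to each, had to be at least 3. These 1179 peaks, called gained peaks from here on, are 1.28% of all microglial peaks. The members were chosen by the measured genotype difference in microglial H3K27ac, so that difference is given as a description and without a test.

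All nuclei came from forebrains of C57BL/6 mice, either wild-type (WT) or lacking Sgsh (SgshKO), at 4 or 8 months of age. Sgsh encodes a lysosomal sulfatase that degrades heparan sulfate, and its loss models the lysosomal storage disease mucopolysaccharidosis type IIIA. Nuclei were sorted as microglia (positive for PU.1), neurons (positive for NeuN) or oligodendrocytes (positive for Olig2), each negative for the other 2 markers. H3K27ac was measured in 2 libraries per cell type, genotype and age. Microglial nuclei were also precipitated for the MiT/TFE factors MITF, TFEB and TFE3, with 3 WT and 2 SgshKO samples per factor and no age given, and these samples stand in the deposited table as 1 merged pool per factor and genotype. The labels do not say whether 2 libraries of a group came from separate animals, so p-values measure the spread between these libraries, which may be technical.

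H3K27ac marks active promoters and enhancers, the stretches of DNA that switch genes on from near and from afar. Microglia are the resident macrophages of the brain, and PU.1 is the factor that defines much of their enhancer repertoire. In storage disease and neurodegeneration they leave a homeostatic state and turn on a set of lipid, lysosomal and secreted genes known as the disease-associated (DAM) programme. MITF, TFEB and TFE3 form the MiT/TFE family. They are held in the cytoplasm by phosphorylation at the lysosome, enter the nucleus when lysosomes are stressed, and bind E-box sequences with the core CACGTG or CATGTG near genes for lysosomes, autophagy and lipid handling.

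Of the 1179 gained peaks, 124 had their centre within 1 kb of a transcription start site, and 45 of these enclosed a whole promoter sequence of their gene. The upstream parts of 6 of them are printed because they show which of the searched motifs stand, or do not stand, at gained promoters. Coordinates are mm10, and the sequences are those of RefSeq for GRCm38.p6, from 250 bases before the start to the base before it, written 5′ to 3′ on the gene's strand. Capitals mark the E-box cores CACGTG and CATGTG, the PU.1 motif GAGGAAGT, the AP-1 motif TGANTCA, the C/EBP motif TTGCNNAA and the RUNX motif TGTGGTT, on either strand.

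Apoe, chr7:19699189-19699438, minus strand, none of the motifs: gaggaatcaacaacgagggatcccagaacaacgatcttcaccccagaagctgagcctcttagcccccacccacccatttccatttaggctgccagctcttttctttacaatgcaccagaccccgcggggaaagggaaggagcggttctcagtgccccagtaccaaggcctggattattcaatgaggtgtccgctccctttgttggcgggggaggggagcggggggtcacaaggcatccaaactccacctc
Rftn1, chr17:50190498-50190747, minus strand, CATGTG and the PU.1 motif: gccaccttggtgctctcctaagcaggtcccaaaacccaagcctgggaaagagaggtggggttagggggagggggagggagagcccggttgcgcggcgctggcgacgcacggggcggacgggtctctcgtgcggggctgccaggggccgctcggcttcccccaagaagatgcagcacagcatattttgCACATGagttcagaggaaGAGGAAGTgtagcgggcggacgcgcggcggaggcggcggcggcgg
Plaur, chr7:24462233-24462482, plus strand, AP-1 and C/EBP motifs: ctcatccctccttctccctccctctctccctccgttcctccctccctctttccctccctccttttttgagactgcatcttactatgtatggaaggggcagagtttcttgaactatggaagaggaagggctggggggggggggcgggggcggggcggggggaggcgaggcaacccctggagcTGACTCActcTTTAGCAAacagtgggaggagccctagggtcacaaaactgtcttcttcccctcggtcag
Dpp7, chr2:25356333-25356582, minus strand, CACGTG once and CATGTG at 2 places: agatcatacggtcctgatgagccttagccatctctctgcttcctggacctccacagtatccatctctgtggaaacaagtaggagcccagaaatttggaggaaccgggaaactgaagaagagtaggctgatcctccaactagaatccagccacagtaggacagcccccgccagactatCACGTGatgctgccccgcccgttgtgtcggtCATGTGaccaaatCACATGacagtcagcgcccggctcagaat
Nceh1, chr3:27182754-27183003, plus strand, CACGTG and the PU.1 motif: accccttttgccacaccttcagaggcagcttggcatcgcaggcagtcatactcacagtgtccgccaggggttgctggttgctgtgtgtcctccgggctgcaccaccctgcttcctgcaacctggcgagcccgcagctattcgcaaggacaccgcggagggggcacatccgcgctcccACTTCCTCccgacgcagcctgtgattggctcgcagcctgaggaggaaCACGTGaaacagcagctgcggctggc
Maff, chr15:79347270-79347519, plus strand, CACGTG: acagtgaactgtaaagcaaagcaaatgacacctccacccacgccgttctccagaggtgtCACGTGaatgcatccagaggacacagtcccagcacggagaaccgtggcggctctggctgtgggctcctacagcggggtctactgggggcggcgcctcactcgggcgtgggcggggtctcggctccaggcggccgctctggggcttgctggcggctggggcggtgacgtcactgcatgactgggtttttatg

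These promoters differed in how much acetylation they carried as well as in their letters. The Apoe window had H3K27ac levels of 24.16 and 35.37 normalised tags in the 4-month WT libraries and 41.83 and 16.34 in the 8-month ones, against 149.48, 183.06, 178.6 and 126.72 in SgshKO. The Dpp7 window, at the gene for a lysosomal dipeptidyl peptidase, was at 7.5, 1.36, 10.14 and 6.39 in WT and at 26.87, 35.67, 31.87 and 15.74 in SgshKO. The Rftn1 window, at the gene for the lipid raft protein raftlin, had means of 15.5 in WT and 121 in SgshKO. At Plaur, which encodes the urokinase receptor, the means were 22.3 and 85.9. In all 4 windows every SgshKO library was above every WT library. The rule used these libraries, and the same held at 98.8% of gained peaks and 6.13% of all peaks, so this is a description.

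Over the 45 searched promoters of 300 bases, which run from 250 bases before to 50 after the start, CACGTG stood in 4 (8.89%), against 7.15% of 32851 RefSeq promoters of the same length. CATGTG stood in 7 (15.6%, against 14.2%) and the PU.1 motif in 3 (6.67%, against 3.20%). The AP-1 motif stood in 5 (11.1%, against 7.81%), the C/EBP motif in 5 (11.1%, against 10.8%) and the RUNX motif in 2 (4.44%, against 5.27%). Motifs may overlap one another. With so few promoters these shares are a description only, and they say nothing of the 1055 gained peaks farther from a start, whose sequences were not analysed here.

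Total depth was 12000879 to 15778229 tags per microglial H3K27ac library, with 33.2% to 51.3% in peaks, and 10319657 to 70034332 tags per input (chromatin without antibody). The peak at the Sgsh start had levels of 93.8 to 143 normalised tags in WT and 93.7 to 122 in SgshKO. H3K27ac does not read the Sgsh lesion, so the labels of genotype cannot be checked on it. Microglial identity was checked on peaks at the start sites of marker genes. For microglia 9 of 10 markers had such a peak, with summed levels of 2496 to 3031 in the WT libraries and 1759 to 2500 in SgshKO. Markers of neurons and astrocytes stood far below, at no more than 28.6 summed over 3 neuronal genes and 57.9 over 4 astrocyte genes. Oligodendrocyte sums reached 369. The oligodendrocyte marker Cnp alone was at 106 to 268, above the microglial marker Tmem119 at 44.9 to 113.

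Some of these marker sums moved with genotype, and their part in the results was not tested. For oligodendrocytes 6 of 10 markers had a start-site peak, and their sums were 273 to 369 in WT and 142 to 191 in SgshKO. The sums came mainly from Cnp and Mog, while Olig1 and Olig2 lay between 0 and 9.3 in every library. For endothelium 3 of 6 markers had a peak, with sums of 94.5 to 127 in WT and 70.1 to 90.2 in SgshKO. Of these, Pecam1 was at 68.91 to 97.26 and 20.58 to 36.51, while Kdr was at 12.92 to 38.33 and 41.72 to 49.6, and Flt1 at 0.68 to 2.13 and 4.13 to 13.94. For border macrophages, which also carry PU.1, 3 of 8 markers had a peak, and the sums were 55.1 to 78.2 in WT and 87.4 to 117 in SgshKO. Of these, Mrc1 was at 32.5 to 49.65 in WT and 62.18 to 74.4 in SgshKO, Ms4a7 at 9.23 to 10.77 and 12.4 to 23.24, and Pf4 at 9.51 to 21.31 and 7.58 to 21.91. Lyve1, Cd163, F13a1, Cbr2 and Cd209f had no peak within 1 kb of their starts. No gained peak had a microglial, neuronal, oligodendrocyte, astrocyte, border macrophage or monocyte marker as its nearest gene. Among the other lists 1 gained peak was nearest Flt1 and 1 nearest Cd4. In sorted bulk nuclei, a higher mark per nucleus and more nuclei carrying the mark cannot be told apart.

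Across the gained peaks, the WT mean ran from 0.50 to 85.9 normalised tags with a median of 9.48, and the SgshKO mean from 20.0 to 332 with a median of 50.1. The ratio ran from 3 to 63.3 with a median of 4.21. Library by library, the median over the set was 8.33 and 11.56 in the 4-month WT libraries, 9.51 and 9.23 in the 8-month ones, 48.22 and 55.86 in the 4-month SgshKO libraries and 49.8 and 44.87 in the 8-month ones. All 4 SgshKO medians were above all 4 WT medians, and the input medians lay between 0 and 4.98. At 1165 of the 1179 peaks the lowest SgshKO library was above the highest WT library, which also held at 6.13% of all peaks and, as the rule used this contrast, is no support for the set.

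**Figure D1:**
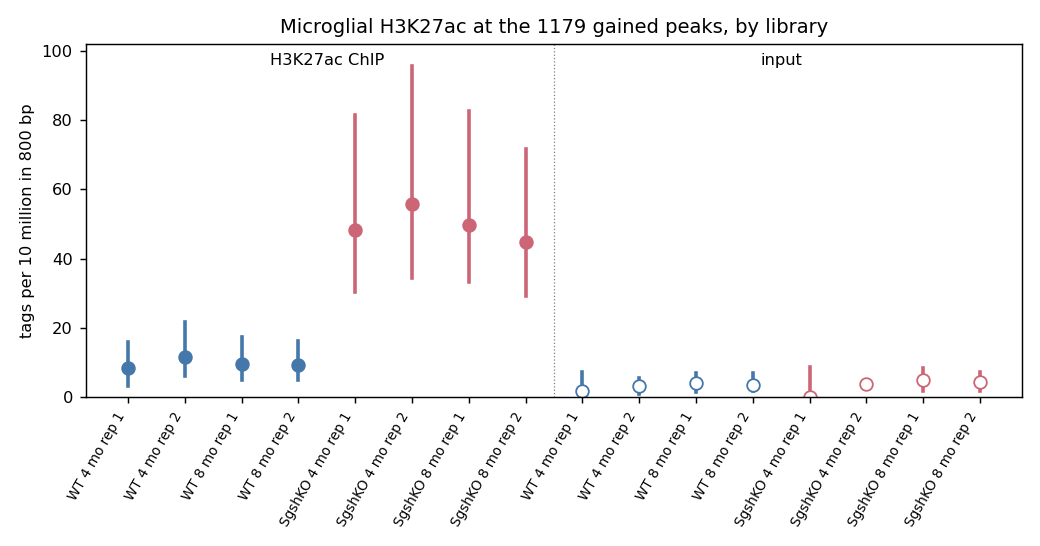
Microglial H3K27ac at the 1179 gained peaks in each of the 8 ChIP libraries (filled) and 8 inputs (open), as normalised tags in 800 bp, with the circle at the median and the line from the lower to the upper quartile over peaks. WT medians sit between 8.33 and 11.56, SgshKO medians between 44.87 and 55.86, and inputs at or below 4.98.

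The rule limits how high the WT level of a gained peak can be, so these levels are a description. The WT mean was under 5 at 234 gained peaks (19.8%, against 27.1% of all peaks). It was from 5 to below 20 at 718 gained peaks (60.9%, against 26.1%), and at least 20 at 227 gained peaks (19.3%, against 46.7%). None was empty in all 4 WT libraries, although 114 had no tag in replicate 1 of the 4-month WT group, against 9 to 15 in the other WT libraries. A ratio of at least 10 was found at 93 microglial peaks, and 91 of these were in the set. At 49 gained peaks (4.16%, against 47.2% of all peaks) the highest SgshKO input reached the lowest SgshKO ChIP library. At 4 gained peaks (0.339%, against 34.4%) the mean SgshKO input was at least 0.5 of the mean ChIP level. The rule asks for an SgshKO mean of at least 20, which by itself lowers these shares in the set.

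The limits cut through a continuous range. Just inside the ratio limit stood peaks nearest Gm7367 (ratio 3.00) and Eps8l3 (3.00), and just outside it peaks nearest 4930473A02Rik (2.999) and Pwwp2b (2.996). Just inside the level limit stood peaks nearest Tmem51os1 (20.03 normalised tags) and Anxa2 (20.06), and just outside it peaks nearest Ttc30a1 (19.995) and Tmem230 (19.91).

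By the authors' annotation the gained peaks lay away from promoters. In all, 542 were intronic (46.0%, against 45.0% of all microglial peaks) and 501 intergenic (42.5%, against 28.7%). Promoter annotation was given to 74 (6.28%, against 17.7%), and 124 had a start within 1 kb (10.5%, against 25.9%). A start lay 10 to 100 kb away for 643 (54.5%, against 41.9%) and more than 100 kb away for 138 (11.7%, against 5.41%). By chromosome, 99 lay on chromosome 3 (2.40% of its peaks) and 4 on X (0.290%). Within 25 Mb of Sgsh lay 38 (1.20% of the peaks there), close to the 1.28% of the whole table.

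Some gained peaks stood in runs. Whether gained peaks lay closer together than a like number of other microglial peaks was not tested. Joined where they were within 50 kb of each other, the gained peaks made 657 loci. Of these loci 407 held a single peak and 116 held 3 or more, with 504 peaks between them. Windows are 800 bp wide, and 306 gained windows overlapped another gained one, so neighbours share tags. The nearest genes numbered 681. By number of gained peaks the largest runs were at Tmem154 (13 of 19 peaks over 65.2 kb of chromosome 3), at Eps8l3 and Csf1 (13 of 19 over 74.0 kb of chromosome 3) and at Rftn1 (12 of 21 over 85.7 kb of chromosome 17). Within their spans all 8 peaks of the Myo5a run, all 6 of the Hpse run and all 6 of the Slc2a1 run were gained. A span goes from the first to the last gained peak, so peaks outside it are not counted. By nearest gene, 8 of 8 peaks were gained at Myo5a, 6 of 6 at Hpse and 6 of 19 at Slc2a1. It was 13 of 21 at Tmem154, 13 of 29 at Rftn1, 9 of 18 at Eps8l3 and 5 of 16 at Csf1.

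The gained peak of highest level lay 119361 bp upstream of Hif1a (chr12:73781563-73782363, intergenic), which encodes the oxygen-sensing factor HIF1α. Its WT levels were 86.66, 121.07, 64.01 and 71.75 normalised tags, and its SgshKO levels 349.94, 456.3, 230.39 and 289.66. The groups did not overlap, and both 4-month SgshKO libraries were above both 8-month ones. The means were 85.9 ± 25.3 and 332 ± 96.4 (SD, n = 4 libraries over 2 ages).

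A pair of overlapping windows followed in intron 1 of Rxra, the nuclear receptor that pairs with LXR and PPAR in lipid sensing. The window 18114 bp from the start (chr2:27728297-27729097) was at 58.1 ± 23.8 in WT and 301 ± 33.4 in SgshKO, and the one at 17550 bp (chr2:27727733-27728533) at 77.0 ± 30.2 and 299 ± 53.6. In each, replicate 2 of the 4-month WT group was the highest WT library, at 93.18 and 121.75, and stayed below the lowest SgshKO library, at 265.25 and 262.11. Rxra had 4 gained peaks among 49 measured.

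Next in level was a peak 36664 bp upstream of Coro1c, the gene of an actin-binding coronin (chr5:113944970-113945770), at 77.9 ± 18.6 in WT and 288 ± 30.1 in SgshKO. Intergenic peaks nearest 2700070H01Rik (84.2 ± 9.78 and 274 ± 59.2) and Mthfs, a folate enzyme (82.1 ± 21.7 and 263 ± 28.7), had similar levels. The peak in intron 1 of Nol4l was at 62.6 ± 13.3 and 272 ± 62.8. None of these pairs of ranges overlapped, as at nearly all gained peaks.

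At start sites the strongest gained peak was that of Cd63 (chr10:128909841-128910641), a tetraspanin of late endosomes and lysosomes. It was at 82.49, 83.66, 93.17 and 76.72 normalised tags in WT and at 232.14, 354.68, 258.28 and 244 in SgshKO. Ccl3, a chemokine of the DAM programme (chr11:83648057-83648857), was at 77.9 ± 10.9 in WT and 252 ± 45.3 in SgshKO. Adap1, an ArfGAP, was at 66.4 ± 8.66 and 245 ± 17.98. The start-site peaks of Folr1 (folate receptor, 69.0 ± 17.3 and 210 ± 63.1), Apoe (29.4 ± 11.4 and 159 ± 26.4), Tcirg1 (a subunit of the lysosomal proton pump, 50.6 ± 13.2 and 157 ± 21.3), Slc36a4 (an amino acid transporter, 45.3 ± 6.30 and 145 ± 28.4) and 4933432I03Rik (43.5 ± 15.6 and 212 ± 32.5) completed the strongest 8.

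**Figure D2:**
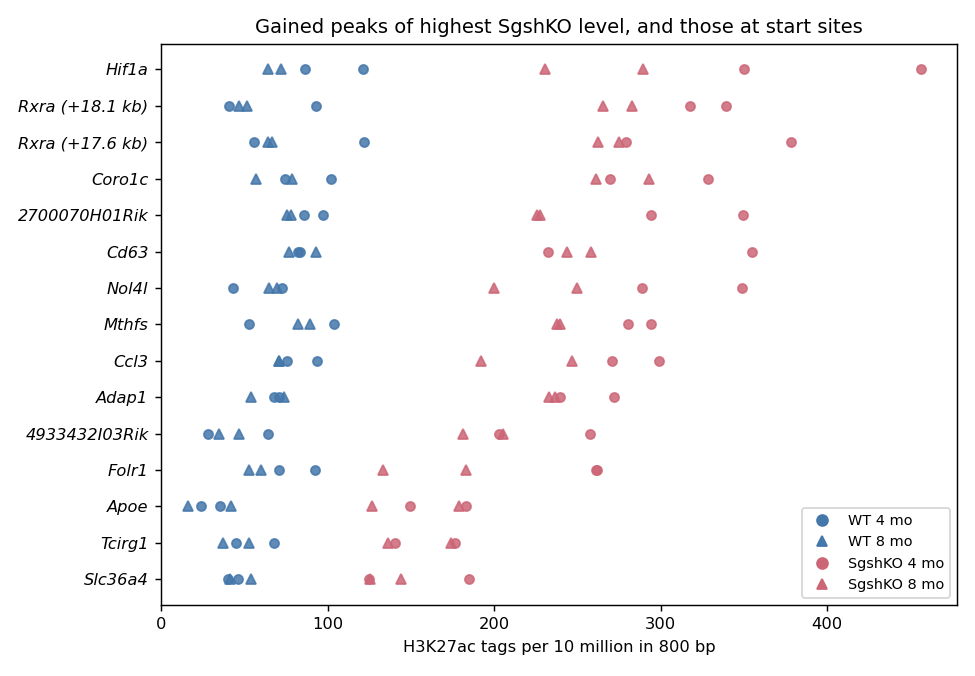
H3K27ac normalised tags in each microglial library at the 10 gained peaks of highest SgshKO mean and the 8 highest within 1 kb of a start (3 are in both groups), labelled by nearest gene and, for Rxra, by distance from its start. The 4 WT libraries (blue) sit left of the 4 SgshKO libraries (red) in every row; circles are 4 months and triangles 8 months.

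The largest ratios belonged to sites nearly bare of the mark in WT. An intron 2 peak of Cdh4, a cadherin gene (chr2:179649186-179649986), had WT levels of 0, 0, 2.54 and 1.42 normalised tags and SgshKO levels of 105.39, 154.79, 126.15 and 113.34, a ratio of 63.3 with 1 added to each mean. The window beside it had a ratio of 31.6. A pair of peaks nearest Uqcr10 had ratios of 50.2 and 24.1, and a peak 272223 bp from the pseudogene Gm12669 one of 39.8. Others among the 10 largest were nearest 2310022A10Rik (31.9), 1700020M21Rik (31.05), Vrk3 (27.4), 4933427D06Rik (23.2) and 4930563H07Rik (21.97). With 1 added to WT means of 0.67 to 4.19, these ratios depend on the added 1 and are lower than the plain ratios.

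Genes with the most gained peaks mixed membrane, sulfation and cytoskeletal genes. The strongest Rftn1 peak, in intron 2, was at 49.5 ± 6.02 in WT and 227 ± 29.6 in SgshKO. The strongest Tmem154 peak was at 26.6 ± 11.01 and 125 ± 21.1. At Myo5a, a vesicle motor, the strongest lay over the 5′ untranslated region at 17.2 ± 8.39 and 110 ± 28.3. At Chst2, which adds sulfate to sugars, the peak was at 69.8 ± 10.5 in SgshKO, and in WT at 21.67 in replicate 1 of the 4-month group against 1.36 to 4.44 in the other 3 libraries. The strongest peak nearest 4930555K19Rik was at 9.77 ± 3.78 and 101 ± 11.3, and that nearest 1700020M21Rik at 5.43 ± 3.68 and 86.0 ± 8.97.

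Gene lists of microglial biology were set against the nearest genes. They were drawn up with earlier results of these data known, so their counts are a description. Of 34 DAM genes 15 had a gained peak, 35 peaks in all or 10.5% of the 333 peaks nearest those genes, against 1.28% of all peaks. The median log2 ratio over all peaks of the list was 0.57, against -0.15 over all microglial peaks. The 15 were Apoe, Baiap2l2, Ccl3, Cd63, Cd9, Ch25h, Csf1, Cst7, Fabp5, Hif1a, Igf1, Lgals3, Lyz2, Spp1 and Timp2. None of 522 peaks nearest 20 homeostatic microglial genes was gained, and their median was -0.36.

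Among secreted factors, 5 of 32 listed genes had 14 gained peaks (4.71% of their peaks, median log2 ratio 0.11). A peak 55824 bp upstream of Csf1, the growth factor that sustains microglia (chr3:107815893-107816693), was at 12.5, 26.53, 19.65 and 6.39 normalised tags in WT and at 115.04, 128.54, 94.28 and 110.19 in SgshKO. A second Csf1 peak, 23008 bp upstream, was at 24.3 ± 3.72 and 92.6 ± 24.6. A peak 9085 bp upstream of Spp1, which encodes osteopontin, was at 20.2 ± 6.65 in WT and 68.5 ± 25.4 in SgshKO, with the highest SgshKO value, 105.57, in replicate 1 at 8 months. Igf1, a growth factor, had 4 gained peaks among 5.

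Lipid genes gave 23 gained peaks at 11 of 36 listed genes (8.21% of their peaks, median log2 ratio 0.17). They were Abca1, Acaca, Apoc1, Apoc2, Apoe, Ch25h, Dgat2, Fabp5, Nceh1, Pparg and Scd2. The strongest stood in intron 1 of Nceh1, an enzyme that releases cholesterol from its stored esters (chr3:27191603-27192403), at 15.83, 14.96, 17.75 and 15.63 in WT and 208.03, 254.4, 169.97 and 144.83 in SgshKO. That was a ratio of 11.46, with WT libraries within 3 normalised tags of each other. Apoe, the main lipid carrier of the brain, lay in a run of 6 gained peaks among 7 that reached over Apoc1 and Apoc2. Its second promoter window, 534 bp upstream, was at 22.8 ± 12.1 and 112 ± 18.7.

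Lysosomal genes were less uniform. Of 59 genes for lysosomes and heparan sulfate turnover 7 had gained peaks, 24 in all (5.18% of their peaks, median log2 ratio 0.07), and 9 of the 24 were at Fnip2 alone. The others were Atp6v0a1 and Atp6v1a (subunits of the proton pump), Cd63, Hpse, Mcoln2 (a lysosomal channel) and Rragd (a GTPase that signals nutrients at the lysosome). Hpse encodes heparanase, which cleaves heparan sulfate chains. Its intron 2 peak (chr5:100709840-100710640) was at 5, 4.76, 6.97 and 7.1 normalised tags in WT and at 153.61, 179.69, 128.14 and 124.36 in SgshKO, a ratio of 21.2. A second Hpse peak, 31092 bp upstream, was at 36.8 ± 11.6 and 146 ± 26.2. Fnip2 encodes a partner of folliculin, which acts on the Rag GTPases that hold TFEB and TFE3 in the cytoplasm. Its strongest peak, in intron 1, was at 28.3 ± 7.03 and 135 ± 24.5.

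Of 12 listed MiT/TFE factors and partners 3 had 4 gained peaks. These were 3.17% of the peaks of the list, against 1.28% of all peaks. The median log2 ratio of the list was 0.12, against -0.15 over all peaks. A peak 2359 bp upstream of Sqstm1, the autophagy receptor p62, was at 27.2 ± 7.50 in WT and 158 ± 18.1 in SgshKO. A weaker one 1303 bp upstream was at 9.87 ± 2.01 and 44.0 ± 21.7, and there an SgshKO input reached 43.61, so its ChIP level was not clear of the input. A peak 18284 bp upstream of Mitf was at 11.9 ± 3.84 and 59.9 ± 17.0. A peak in intron 1 of Tfeb was at 9.41 ± 3.78 and 32.4 ± 6.28.

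The remaining lists were those of surface receptors, transcription factors and interferon genes. For phagocytosis and surface receptors 7 of 30 genes had 11 gained peaks (3.94%, median log2 ratio -0.03). The strongest were 8176 bp upstream of Cd300lf, a lipid-binding receptor (47.1 ± 13.7 and 144 ± 38.7), in intron 3 of Cd22, a lectin for sialic acids (46.1 ± 10.1 and 141 ± 15.1), and 22696 bp from Fcgr2b, the inhibitory Fc receptor (27.2 ± 8.95 and 110 ± 22.4). For AP-1, stress and metabolic regulators it was 7 of 30 genes with 14 peaks (2.00%, median -0.03): Bhlhe40, Egr1, Hif1a, Jun, Nfe2l2, Runx1 and Rxra. For interferon response and antigen presentation it was 1 peak of 169 (0.592%, median 0.00), 79665 bp from Irf8, at 2.51 ± 2.50 and 24.5 ± 8.84. The 9 lists together covered 99 of the 1179 gained peaks (8.40%), and 2839 of the 91770 microglial peaks, which is a smaller share. Most gained peaks, like most of all peaks, were thus nearest genes on no list.

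Binding of MITF, TFEB and TFE3 was a separate readout, which the choice of peaks did not use. It was measured in 200 bp windows at the same sites, in pools of 27393762 to 48984909 tags. The pools have no replicates in the table, so differences between them carry no test, and the intervals given are exact Poisson 95% intervals that cover counting error only. At the gained peaks the median TFE3 level was 7 normalised tags in the WT pool and 59.9 in the SgshKO pool, while over all microglial peaks it was 6.44 and 9.79. For MITF the medians were 2.92 and 33.96 at gained peaks and 3.29 and 4.63 at all. For TFEB they were 3.52 and 17.3 at gained peaks and 4.69 and 2.70 at all. WT pools thus stood at gained peaks near their level over all peaks, and SgshKO pools stood above it.

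**Figure D3:**
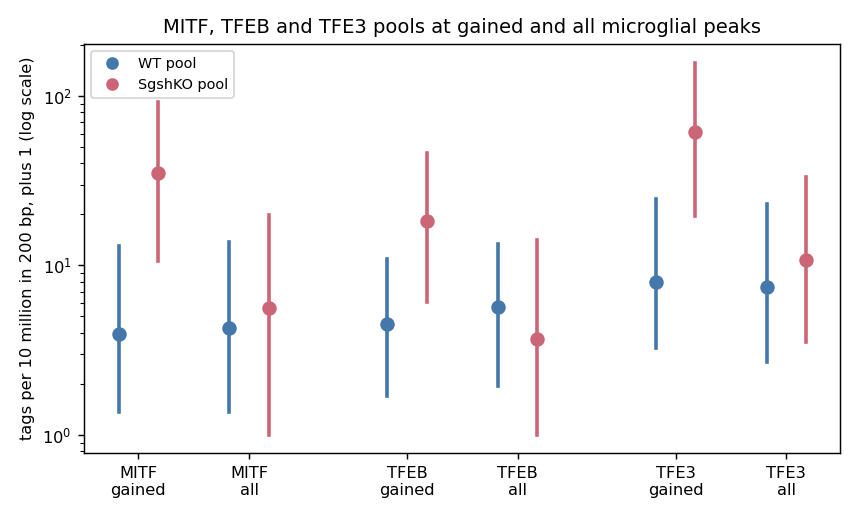
Level of each factor in the WT (blue) and SgshKO (red) pool at the 1179 gained and all 91770 microglial peaks, as normalised tags in 200 bp plus 1 on a log axis; circles are medians over peaks and lines join the quartiles. For TFE3 the medians before adding 1 are 7 and 59.9 at gained peaks and 6.44 and 9.79 at all peaks.

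The median log2 ratio of SgshKO to WT pool, with 1 added to each, was 2.71 for MITF, 1.72 for TFEB and 2.60 for TFE3 at the gained peaks. Over all peaks it was 0 for MITF, -0.18 for TFEB and 0.39 for TFE3. At least 2-fold more MITF was found at 931 gained peaks, against 33.6% of all peaks, at least 2-fold more TFEB at 753, against 21.7%, and at least 2-fold more TFE3 at 1034, against 32.3%. As shares of the set these are 79.0%, 63.9% and 87.7%. All 3 factors were at least 2-fold higher at 606 gained peaks (51.4%, against 5.41% of all peaks), and none at 47. At least 8-fold more MITF stood at 528 gained peaks (8.97% of all peaks), TFEB at 319 (4.88%) and TFE3 at 446 (2.73%).

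A peak was called bound where the log2 ratio of ChIP to input pool, with 1 added to each, was at least 1. In the WT pools 471 gained peaks were bound by MITF (30.6% of all peaks were), 500 by TFEB (32.5%) and 702 by TFE3 (45.1%). In the SgshKO pools it was 967 for MITF (50.4%), 816 for TFEB (40.4%) and 1084 for TFE3 (67.6%). By the mean of both genotypes it was 830 (40.7%), 727 (36.2%) and 1011 (59.5%). All 3 were bound at 266 gained peaks in the WT pools (22.6% of the set, against 14.3% of all peaks) and at 756 in the SgshKO pools (64.1%, against 28.3%). No factor was bound in the SgshKO pools at 67 (5.68%, against 23.4%).

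The SgshKO pools were less evenly spread than the WT pools, which bears on calls over the input. Of all microglial peaks 47.6% held no tag in the SgshKO input, against 4.06% in the WT input. For MITF the share without a tag was 33.4% in the SgshKO and 23.9% in the WT pool, for TFEB 46.0% and 17.6%, and for TFE3 14.1% and 5.40%. At gained peaks the SgshKO pools had no tag at 7.97% (MITF), 17.1% (TFEB) and 0.763% (TFE3). The inputs there had no tag at 5.68% in WT and 39.9% in SgshKO. The median inputs there were 1.84 in WT and 1.49 in SgshKO, against 3.47 and 0.5 over all peaks. Relative to WT, the SgshKO input thus stood higher at gained peaks than over all peaks, as the factor pools did. What part the uneven spread and the inputs had in the differences between pools was not tested.

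Factor and acetylation differences went together over the 41946 peaks whose SgshKO mean H3K27ac was at least 20. Among those with TFE3 at least 8-fold higher in the SgshKO pool, 446 of 1041 were gained (42.8%). From 4 to below 8-fold it was 10.6% of 3291, from 2 to below 4-fold 2.46% of 9771, and in the 3 classes less than 2-fold higher at most 0.574%. In the class of at least 8-fold, the share was 13.4% of 3951 peaks for MITF and 18.97% of 1682 for TFEB. Peaks are not independent replicates, and the factor pools and the H3K27ac libraries were both made from SgshKO and WT nuclei, so this is a description.

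**Figure D4:**
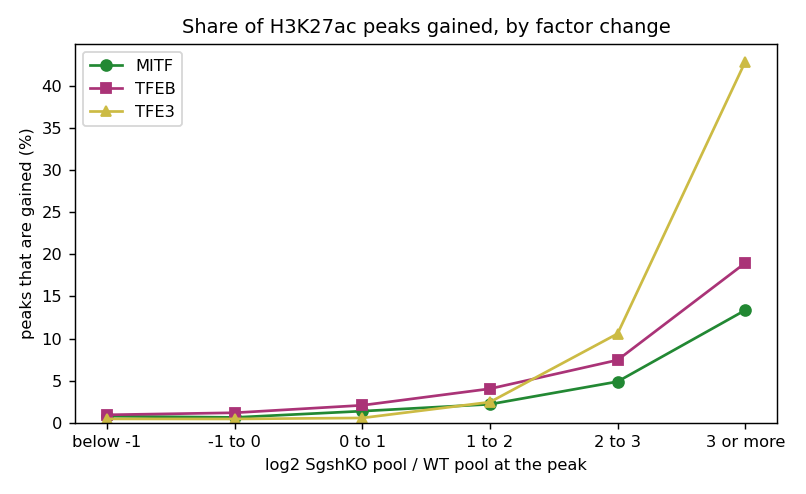
Share of peaks with an SgshKO mean H3K27ac of at least 20 that are gained, by class of log2 ratio of SgshKO to WT factor pool (x axis, from below -1 to 3 or more), for MITF, TFEB and TFE3. The TFE3 line reaches 42.8% in the highest class, the TFEB line 18.97% and the MITF line 13.4%.

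The peaks of highest level over input all lay over 10 kb from the start of their nearest gene. The peak 65317 bp from Ubl3 (chr5:148485956-148486756) was among the 3 highest over input for all 3 factors. TFE3 there was at 200 (interval 186 to 215) in the WT pool and 1168 (1136 to 1201) in the SgshKO pool, MITF at 90.5 (79.6 to 103) and 658 (630 to 687), and TFEB at 104 (94.4 to 114) and 312 (294 to 331). At the peak upstream of Coro1c, MITF was at 125 (112 to 139) and 630 (603 to 658). A peak 101002 bp upstream of Rbpj, which mediates Notch signals, had TFE3 at 142 (130 to 155) and 750 (724 to 776). A peak 13611 bp from Gdf15, a stress-induced secreted factor, had TFEB at 88.9 (80.1 to 98.3) and 310 (292 to 329), and a peak nearest Mir7237 had TFEB at 94.2 (85.3 to 104) and 283 (266 to 302). These sites were occupied in the WT pools and more so in the SgshKO pools.

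At other peaks 1 factor or more was at or near 0 in the WT pool. The peak nearest Gm12669 had MITF at 0 (0 to 1.35) in the WT and 198 (183 to 214) in the SgshKO pool, and TFE3 at 0.28 (0.0071 to 1.56) and 302 (286 to 318). At a peak nearest Arl15 MITF was at 0 (0 to 1.35) and 238 (222 to 256), and at one nearest 4933427D06Rik at 0 (0 to 1.35) and 349 (329 to 370). Other factors could be present in the WT pools at these sites: the Arl15 peak had TFEB at 31.9 (26.8 to 37.7) and TFE3 at 22.1 (17.5 to 27.6), and the 4933427D06Rik peak TFE3 at 14.6 (10.9 to 19.1). For TFEB the largest differences were nearest Uqcr10, with 0.70 (0.15 to 2.06) and 196 (181 to 211), in intron 1 of Cipc, with 0 (0 to 0.865) and 151 (138 to 164), and 10053 bp from Fabp5, a fatty acid carrier, with 0 (0 to 0.865) and 107 (96.1 to 118). For TFE3 they included intron 10 of Prkch, with 1.4 (0.455 to 3.27) and 469 (449 to 489), where MITF was at 17.9 (13.2 to 23.6) in WT, and a peak nearest Eif1a, with 0 (0 to 1.03) and 186 (173 to 199).

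At the genes named above for their functions, the pattern varied. The intron 2 peak of Hpse had TFE3 at 40.05 (33.8 to 47.2) in WT and 514 (493 to 536) in SgshKO, MITF at 4.38 (2.26 to 7.65) and 334 (315 to 355), and TFEB at 7.03 (4.75 to 10.0) and 254 (238 to 271). The strongest Fnip2 peak had TFE3 at 85.4 (76.1 to 95.6) and 1051 (1021 to 1082). At the Apoe start TFE3 was at 101 (90.4 to 112) and 560 (538 to 582). The Mitf peak had MITF itself at 5.84 (3.34 to 9.49) and 62.7 (54.3 to 71.9). In its 200 bp factor window, the Cd63 start-site peak, the strongest of its kind in H3K27ac, held little of any factor. MITF was at 1.46 (0.398 to 3.74) and 0 (0 to 1.14), and TFEB at 5.63 (3.61 to 8.37) and 0.28 (0.0072 to 1.58). TFE3 was at 1.4 (0.455 to 3.27) and 15.9 (12.4 to 20.1). Another gained Cd63 peak, 898 bp from the start, overlapped it in the H3K27ac window and held more of each factor. That peak had TFE3 at 7.56 in WT and 68.56 in SgshKO, MITF at 4.75 and 34.26, and TFEB at 10.32 and 17.34. The strongest of all gained peaks, near Hif1a, had TFE3 at 14.6 (10.9 to 19.1) in WT and 15.7 (12.2 to 19.9) in SgshKO, and MITF at 0.37 (0.0092 to 2.03) and 16.7 (12.5 to 21.7). Both factors stood there below the SgshKO medians of the set.

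Counts by run are given beside the shares of the whole set, and no trait of runs is read from them. TFE3 was at least 2-fold higher in the SgshKO pool at 12 of 13 peaks of the Tmem154 run, 11 of 13 of the Eps8l3 and Csf1 run, 11 of 12 of the Rftn1 run and all 9 of the Fnip2 run, where it was 87.7% over the whole set and 32.3% over all peaks. For TFEB the counts in the same runs were 9 of 13, 9 of 13, 7 of 12 and 4 of 9, where it was 63.9% over the set and 21.7% over all peaks. At the Prkch run it was 6 of 7 for TFE3 and 3 of 7 for TFEB, and at the Myo9b run 4 of 6 for TFE3 and 2 of 6 for each of MITF and TFEB. At the Slc2a1 run, around the gene of the glucose transporter GLUT1, it was 3 of 6 for TFE3 and 1 of 6 for MITF. For MITF it was 79.0% over the set and 33.6% over all peaks. The Prkch, Myo9b and Slc2a1 runs were chosen after their values were seen. The highest TFE3 level of any of the 25 runs with the most gained peaks was at Plekhm2, a lysosome-positioning gene, with 426 in the WT and 1545 in the SgshKO pool. Gained peaks within 1 kb of a start had lower TFE3 levels than those farther away, with SgshKO medians of 22.9 over 124 and 65.8 over 1055 peaks.

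Both ages showed the difference. The median log2 ratio of SgshKO to WT over the gained peaks was 2.13 at 4 months and 2.12 at 8 months. The limits were met by the 4-month libraries alone at 998, by the 8-month libraries alone at 963, and by each age alone at 787, while 5 met them at neither age. The log2 ratio was at least 1 at both ages at 1167. As the rule used these libraries, this too is a description.

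**Figure D5:**
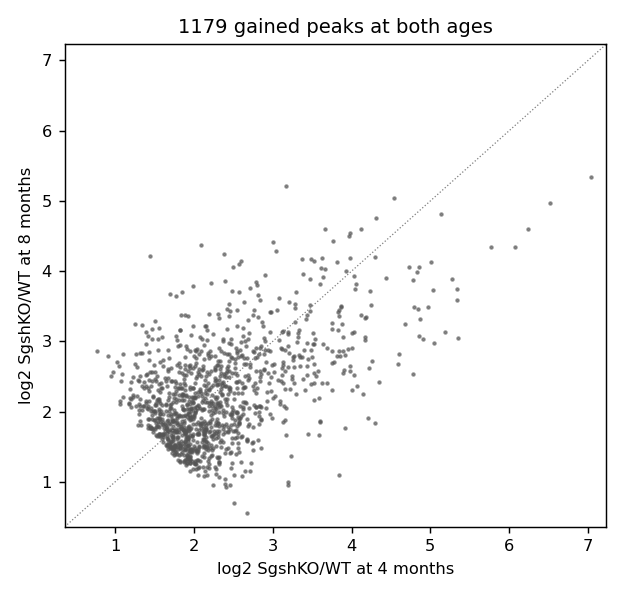
Log2 ratio of SgshKO to WT H3K27ac at each gained peak at 4 months (x axis) and 8 months (y axis), with 1 added to each mean of 2 libraries; the dotted line marks equal ratios. Of the 1179 points, 1167 lie at or above 1 on both axes, and the medians are 2.13 and 2.12.

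Change with age within a genotype was tested with limma on TMM-scaled log2(normalised tags + 1) over 69663 peaks, with Benjamini-Hochberg adjustment (FDR). In SgshKO none of the 1179 gained peaks passed an FDR of 0.05 between 4 and 8 months, where 0.00144% of all tested peaks did, and edgeR called none either. At an unadjusted p under 0.05 there were 38 in limma (3.22%, where all tested peaks had 7.94%), 73 with 5 added in place of 1, and 85 in edgeR, so no difference from all peaks is read from these counts. Their median log2 difference, 8 minus 4 months, was 0.06, against -0.03 over all. Scaling by library totals moved these medians to -0.16 and -0.25, so no direction is given.

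In WT none passed in limma (0% of all), and edgeR called none. At an unadjusted p under 0.05 there were 216, where 5.93% of all tested peaks had one. Many gained peaks passed the filter on low values through SgshKO only, since 234 had a WT mean under 5, so their WT counts are not comparable with those over all peaks and nothing is read from them. Without replicate 2 of the 4-month WT group 113 gained peaks passed, 99 higher and 14 lower at 8 months, among 688 peaks in all, and without replicate 2 of the 8-month WT group 1 did, among 6.

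The peaks with the smallest p for age in SgshKO had Bhlhe40 and Rxrg as their nearest genes. A peak 1126 bp upstream of Bhlhe40, a repressor of the clock and of cholesterol export genes, was at 44.78 and 69.99 normalised tags at 4 months and at 115.53 and 107.83 at 8 months in SgshKO, against 7.1 to 11.56 in WT. Its log2 difference was 1.21 ± 0.37 (SE) with a limma adjusted p of 0.387. Its neighbour was at 26.87 and 36.34, then 78.35 and 64.54, with a difference of 1.39 ± 0.44 and an adjusted p of 0.414. The start-site peak of Rxrg, the gamma form of the retinoid X receptor, was at 19.98 and 20.86, then 53.78 and 60.61, with a difference of 1.66 ± 0.55 and an adjusted p of 0.433. In each the 8-month libraries were above the 4-month ones, and none passed the test.

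The genotype by age interaction, tested with limma over the same peaks, called no gained peak (0% of all tested). At an unadjusted p under 0.05 there were 107 (6.47% of all tested peaks had one), and edgeR called none. The interaction holds the WT age difference, so the same limit applies. The smallest p belonged to peaks nearest Gm4832, with a log2 interaction of 1.81 ± 0.51, Gm19276, with 2.12 ± 0.61, and Ly9, an immune cell receptor, with 1.53 ± 0.45, each at an adjusted p of 0.747. At the Ly9 start, WT went from 26.66 and 28.57 at 4 months to 15.21 and 13.5 at 8 months, and SgshKO from 56.49 and 62.59 to 83.66 and 92.88. Without replicate 2 of the 4-month WT group, 25 gained peaks passed the interaction test, among 149 in all, 4 with a larger and 21 with a smaller genotype difference at 8 months. The inputs were tested for genotype over both ages with limma at the 533 gained peaks with enough tags, and none passed (0% of the 39323 tested). There, 18 had an unadjusted p under 0.05 (3.38%, against 2.82% of all), and edgeR called none. The median log2 difference of the inputs was 0.28, against 0.01 over all peaks. It was -0.12 (all -0.32) without replicate 2 of the 4-month SgshKO group and 0.46 (all 0.26) without replicate 1 of that group. Without replicate 1 of the 4-month WT group it was 0.03 (all -0.14), so no sign is given. In each of these fits the gained peaks had a higher median than all peaks. In the main fit 59.8% of the 533 were above 0, against 50.5% of all. What part this had in the H3K27ac difference was not tested.

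In other cell types, gained peaks were seldom open chromatin sites. A neuronal peak had its centre within 200 bp at 195 gained peaks (16.5%), against 31.1% of all microglial peaks, and an oligodendrocyte peak at 177 (15.01%), against 28.2%. At the 194 distinct neuronal peaks the median level was 22.03 normalised tags in WT and 25.8 in SgshKO, and at the 176 oligodendrocyte peaks 35.2 and 33.1. The limits by which the microglial peaks were chosen were met in their own cell type by 0 of all 107627 neuronal and 0 of all 82577 oligodendrocyte peaks, so this says nothing particular of the matched ones.

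In neurons, limma called none of 186 tested peaks at 4 months, at 8 months or over both ages, and 0% of all 98038 tested peaks in each. At an unadjusted p under 0.05 there were 13 at 4 months (9.05% of all), 2 at 8 months (1.35%) and 11 over both ages (4.8%), and edgeR called none. The median log2 difference over both ages was 0.12, against 0.01 over all peaks, and 125 of the 186 were above 0 (67.2%, against 50.9% of all). Without replicate 2 of the 4-month SgshKO group the median was 0.05. The smallest p belonged to peaks nearest Vat1, Scd2 and Gpr162. At Scd2, a fatty acid desaturase gene, the neuronal levels were 96.61, 117.17, 105.43 and 104.69 in WT and 152.14, 157.31, 138.08 and 132.28 in SgshKO, which do not overlap, with a log2 difference of 0.42 ± 0.15 and a limma adjusted p of 0.970. At the same site the microglial means were 5.18 and 29.6. Among the highest neuronal levels were those near Mir3089, where WT was at 347 to 454 and SgshKO at 343 to 418 in one window, a site at which microglia had means of 16.0 and 52.1.

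In oligodendrocytes, limma called none of 172 tested peaks at 4 months (0.204% of all 78411), at 8 months (0.00893%) or over both ages (0.138%), and edgeR called none. At an unadjusted p under 0.05 there were 27 at 4 months (11% of all), 12 at 8 months (3.55%) and 27 over both ages (8.71%). Without replicate 1 of the 4-month WT group 5 passed at 4 months, among 2224 oligodendrocyte peaks in all, and 1 over both ages, among 144. Without replicate 2 of that group 4 passed at 4 months, among 851. The median log2 difference over both ages was 0.08, against 0.02 over all, and 0.05 without replicate 1 of the 4-month SgshKO group. Under library totals in place of TMM the medians of the matched and of all peaks were -0.06 and -0.12, so no sign is given for the oligodendrocyte peaks as a group. Under both scalings the matched peaks had a higher median than all peaks. In the main fit 112 of the 172 were above 0 (65.1%, against 52.3% of all).

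Single oligodendrocyte peaks lay on both sides of 0. At intron 2 of Cd63 the levels were 34.64, 35.7, 65.76 and 57.67 in WT and 55.3, 42.5, 85.34 and 94.8 in SgshKO, a log2 difference of 0.63 ± 0.18 with a limma adjusted p of 0.156. Upstream of Tmem154 they were 16.02, 21.7, 34.32 and 38.61, then 45.92, 32.58, 48.26 and 45.64, with 0.82 ± 0.23 and an adjusted p of 0.164. Nearest 4930500G05Rik, on X, they were 20.11, 51.09, 34.32 and 35.55, then 15.75, 10.86, 11.02 and 21.21, a difference of -1.05 ± 0.29 with an adjusted p of 0.154. Microglia at that site went the other way, from 13.6 ± 4.61 to 45.3 ± 11.4. At the Apoe start the oligodendrocyte level was 132 to 206 in WT and 87.4 to 233 in SgshKO, with a difference of -0.02 ± 0.12. Whether the genotype difference itself differs between cell types was not tested, since the tables were normalized separately.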

How the data were processed

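Brain nuclei were sorted by PU.1, NeuN or Olig2, and H3K27ac, MITF, TFEB and TFE3 were measured by ChIP-seq, the factors after an added crosslinking step with DSG, per the labels' protocols. Bowtie2, HOMER, DESeq2 and mm10 are named in the submitters' processing notes, with no versions, roles or filters. The deposited values are signal in tags scaled to a library total of 10000000 (normalised tags), per the file headers, in windows of 800 bp (H3K27ac) and 200 bp (factors) at open chromatin peaks. The factor columns are the authors' merged pools. The 1 tag step of each column gave back whole tags (steps of 0.5 tags in the 8-month neuronal and oligodendrocyte libraries and 2 inputs), and at least 99.997% of low values came out whole within 0.02 of a step. The microglial input headers repeat ChIP totals, so input totals came from the step.

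For each cell type the 8 libraries were fitted together as 4 groups of 2, over all peaks passing filterByExpr. Contrasts over both ages, those of the inputs included, were fitted to the 8 libraries with additive terms for genotype and age instead. All fits used TMM scaling (edgeR 4.0.16) and limma 3.58.1 with a mean trend on log2(normalised tags + 1). Tests were two-sided, at a Benjamini-Hochberg FDR below 0.05. The fit was tested on simulated data. edgeR's quasi-likelihood test on the recovered tags, other scalings, filters, added values, distances and left-out libraries were alternatives. Neuronal and oligodendrocyte peaks were matched by centres within 200 bp. Genes are the nearest ones in the authors' annotation, which is not evidence that a peak acts on them.

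The regions, gene lists and tests were chosen with earlier results of these data known. Named peaks are the 10 of highest ratio, the 10 of highest SgshKO mean, the strongest peak of the 8 genes with most gained peaks, the 4 strongest per gene list, the 8 strongest within 1 kb of a start, per factor the 3 highest over input and the 3 with the largest SgshKO to WT ratio, the 3 of smallest p and the 3 of highest level in other cell types, the 3 of smallest p for age and interaction, and 2 on each side of each limit. Other genes, and the promoters printed, were chosen after their values were seen. Oligodendrocyte factor data were not used here. A named peak is not reported here.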

Additional observations from a re-analysis of the deposited data

How the results depend on the processing

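Of 165 alternative values computed, 156 were equal to the reported one or within 1.5 times of it. Most of these were counts of 0 called peaks against a reported 0, so the total says little of the other results. The number of gained peaks was 1589 after TMM scaling, which included all 1179, 664 at a ratio of at least 4, 739 at an SgshKO mean of at least 40, 821 with 5 added in the ratio, and 1085 to 1349 when a library was left out. Bound in the WT pool alone by MITF were 471 gained peaks, against 830 by the mean of both pools. Calls of gained peaks when a library was left out ranged from 0 to 113 for age in WT, from 0 to 25 for the interaction, and from 0 to 5 (4 months) and 0 to 1 (both ages) in oligodendrocytes, and were 0 for age in SgshKO, the inputs, neurons and oligodendrocytes at 8 months. In fits that leave 1 library in a group, that library is assumed to vary like the others. With 5 in place of 1 added, the median log2 ratios of the factor pools were 1.94 (MITF), 1.21 (TFEB) and 2.04 (TFE3). Same-numbered libraries deviated from their group means with correlations between -0.026 and 0.016, so the numbers do not pair them. The replicate block changed no count of called gained peaks, which stayed at 0 in each of the 10 contrasts. With 2 libraries per group and 6059671 tags in the shallowest neuronal library, small differences were not detectable.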
